A study of Homo sapiens with 4 samples.

Results

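The transcription factor network around MYC and MAX was followed in HCT116 cells under hypoxia. The rule took 10 genes (MYC, MAX, MXI1, MXD1, MXD3, MXD4, MNT, MLX, MLXIP and MGA) and every probe set that the platform annotation pairs with exactly 1 of them. It found 27 of 54613 non-control probe sets, for 9 of the 10 genes. MXD4 appears in that annotation only in 3 probe sets that also list a microRNA gene, so it was not analysed here. HCT116 is an established human colon cancer line. All cells, controls included, first spent 24 h without serum. The hypoxia group then stayed at 1% oxygen and the normoxia group at 21% oxygen, each for 72 h. There were 4 arrays, a hypoxia A and B and a normoxia A and B. The titles mark the arrays of each group as exp A and exp B, and say no more on whether these were separate cultures. The p-values therefore measure only how far these arrays spread, which may be technical.

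MYC binds DNA as a dimer with MAX at E-box sequences and activates genes of growth, nucleolar function and metabolism. The MXD proteins (MXD1, MXI1, MXD3, MXD4) and MNT also dimerise with MAX, occupy the same kind of site and bring in SIN3 and histone deacetylases, so they oppose MYC. MLX is a MAX-like protein that dimerises with MLXIP (MondoA), a sensor of sugar phosphates, and with some MXD proteins and MNT, while MGA joins MAX to a Polycomb-type repressor complex. MXI1 is a known target of hypoxia-inducible factors, and serum withdrawal is known to lower MYC.

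The promoters of both MXD genes that rose in hypoxia, and of the 2 searched members with an E-box, are shown. A reader can thus see which factor motifs lie next to these starts. Each is the 250 bases before an annotated start, from RefSeq on GRCh38.p14. Of the 9 measured genes, 8 were searched, all but MYC, and they had 13 starts. Capitals mark each match to the core of the hypoxia response element, ACGTG or GCGTG, on either strand (CACGT and CACGC on the other strand). The E-box CACGTG holds that core on both strands, so the motifs overlap.
MXD1, chr2:69914859-69915108, plus strand: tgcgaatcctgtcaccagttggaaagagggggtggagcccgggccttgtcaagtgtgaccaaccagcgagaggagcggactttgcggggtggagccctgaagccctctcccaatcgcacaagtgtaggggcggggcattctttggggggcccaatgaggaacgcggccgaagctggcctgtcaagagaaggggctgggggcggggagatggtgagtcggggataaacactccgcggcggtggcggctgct
MXI1, start 1, chr10:110207355-110207604, plus strand: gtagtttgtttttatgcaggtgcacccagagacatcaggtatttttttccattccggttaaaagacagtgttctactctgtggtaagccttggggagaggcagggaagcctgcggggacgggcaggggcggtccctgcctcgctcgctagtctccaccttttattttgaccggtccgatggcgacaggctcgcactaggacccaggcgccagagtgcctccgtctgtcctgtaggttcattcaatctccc
MXI1, start 2, chr10:110209981-110210230, plus strand: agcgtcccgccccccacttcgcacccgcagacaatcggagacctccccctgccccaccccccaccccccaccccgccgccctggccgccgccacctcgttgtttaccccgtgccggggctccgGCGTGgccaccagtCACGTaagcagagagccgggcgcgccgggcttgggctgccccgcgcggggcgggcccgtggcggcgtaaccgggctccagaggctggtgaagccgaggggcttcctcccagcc
MXI1, start 3, chr10:110225746-110225995, plus strand: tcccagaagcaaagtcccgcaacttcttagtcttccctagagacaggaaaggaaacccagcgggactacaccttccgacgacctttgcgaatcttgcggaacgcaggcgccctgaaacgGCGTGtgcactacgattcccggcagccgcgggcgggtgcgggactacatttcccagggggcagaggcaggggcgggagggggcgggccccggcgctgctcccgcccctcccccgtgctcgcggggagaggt
MNT, chr17:2401061-2401310, minus strand: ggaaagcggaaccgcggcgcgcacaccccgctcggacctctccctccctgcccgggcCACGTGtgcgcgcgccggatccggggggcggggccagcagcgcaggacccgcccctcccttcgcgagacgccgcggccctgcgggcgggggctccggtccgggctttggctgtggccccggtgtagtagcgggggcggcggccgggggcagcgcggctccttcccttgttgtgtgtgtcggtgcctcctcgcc
MLX, chr17:42566850-42567099, plus strand: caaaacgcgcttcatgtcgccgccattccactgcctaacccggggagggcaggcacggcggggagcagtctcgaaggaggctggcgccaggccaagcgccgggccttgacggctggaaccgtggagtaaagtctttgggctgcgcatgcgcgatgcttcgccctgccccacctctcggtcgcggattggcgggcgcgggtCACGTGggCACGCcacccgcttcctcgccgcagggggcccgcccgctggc

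The MXD1 window and that of MXI1 start 1 held 0 matches. MXI1 start 2 had 2, beginning 127 and 113 bases before it, and start 3 had 1, at 131 bases. The E-box stood once in MNT, at 193 bases, and once in MLX, at 50 bases, and in none of the other 11 windows of the members. Of 35116 windows in the table, 2228 (6.3%) held the E-box and 15172 (43.2%) held a core. Among the 13 windows of the members, 2 (15.4%) and 9 (69.2%) did. A match describes these letters only, and the arrays do not show which start was used.

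Values are MAS5 signals, a brightness per probe set on a linear scale. A difference is the hypoxia mean less the normoxia mean of log2(signal + 23.7), with its standard error (SE), and it understates the change of dim probe sets. A probe set was tested if its mean over the 4 arrays reached 97.4, the median of all probe sets. A call needs an adjusted p under 0.05 in limma, by Benjamini and Hochberg over the 27304 probe sets that passed. Of the 27 probe sets of the network, 20 passed, with at least 1 for each of the 9 genes.

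In hypoxia the mRNA signal of MYC was lower and that of the antagonists MXD1 and MXI1 was higher. MYC fell 2.28-fold (log2 difference -1.19 ± 0.18 SE), MXD1 rose by 2.94 to 3.25 on the log2 scale over its 3 probe sets, and MXI1 rose 2.73-fold. One of 4 tested MAX probe sets fell and the others did not pass. No probe set of MXD3, MNT, MLX, MLXIP or MGA passed. In all, 6 of 20 were called, where 30.8% of all tested probe sets were. Of these, 4 of 20 (20%) were called higher, where 13.7% of all tested probe sets were, and 2 of 20 (10%) were called lower, where 17.1% were. As a group the network lay near the background. Where a result is given below with 1 array left out, its group has a single array and the spread comes only from the other group's pair. The median SD of log2 values was 0.304 in hypoxia and 0.173 in normoxia, so a call gained without a hypoxia array or lost without a normoxia array is no sign of a larger or smaller difference. The groups did not overlap in 12 of 20 (60.0%), against 68.5% of all tested probe sets.

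**Figure D1:**
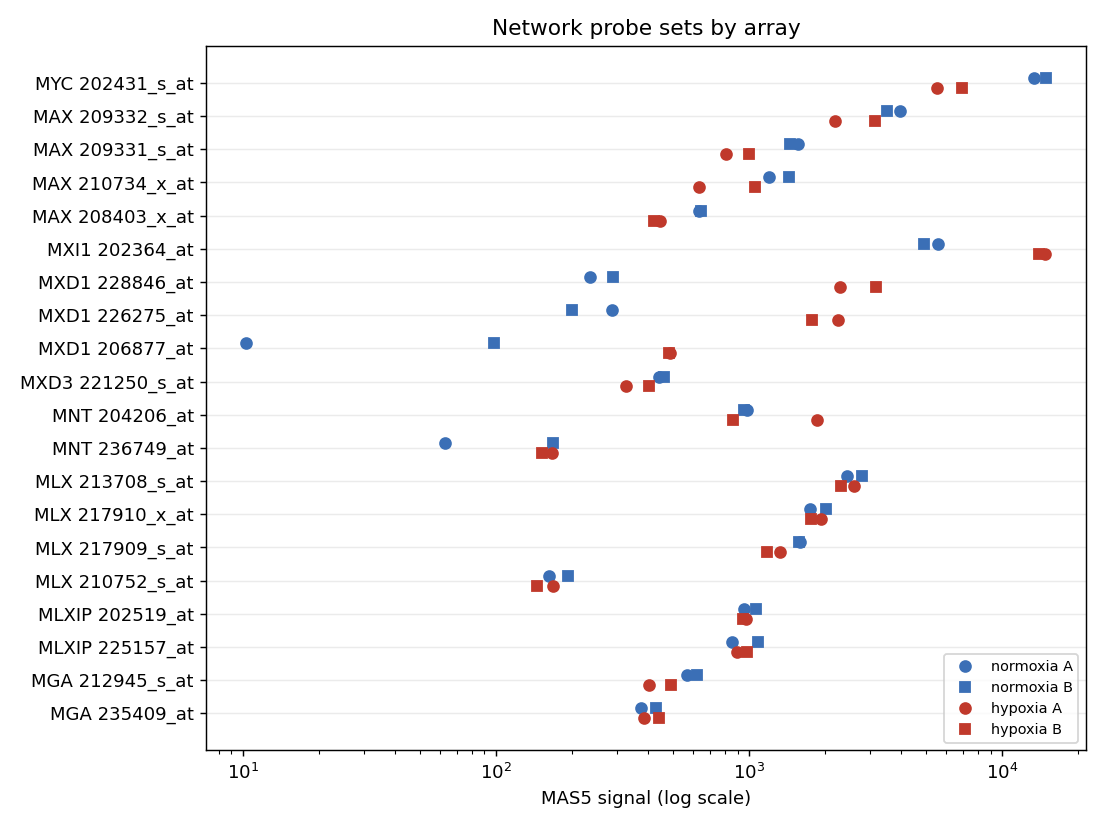
MAS5 signal (log axis) of the 20 tested network probe sets on each array, normoxia in blue and hypoxia in red, circles for A and squares for B. For MYC both red points lie left of both blue ones, at 5508 and 6941 against 13389.7 and 14846, and for MXI1 and the 3 MXD1 probe sets both red points lie to the right.

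MYC had 1 probe set, 202431_s_at. Its signal was 13389.7 on normoxia A and 14846 on normoxia B, and 5508 on hypoxia A and 6941 on hypoxia B. Both hypoxia arrays were lower than both normoxia arrays. The means were 14118 ± 1029.6 in normoxia and 6225 ± 1013 in hypoxia (SD, n = 2 each). The adjusted p in limma was 0.00155, with a 95% interval of the log2 difference from -1.60 to -0.77. Within the letters the difference was -1.28 for A and -1.09 for B. With 2 arrays against 2, an exact permutation test of a single value cannot give a two-sided p below 0.333, so the tests here rest on spread shared over probe sets. The call was lost in a fit without an intensity trend (adjusted p = 0.0544). In bulk RNA, fewer cells with MYC mRNA and less of it per cell cannot be told apart.

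MAX, the shared partner, had 5 probe sets, of which 4 were tested. All 4 were lower in hypoxia without overlap, where 68.5% of all tested probe sets had no overlap in either direction. On 209332_s_at the signal was 3957 and 3497 on normoxia A and B, and 2181 and 3144 on hypoxia A and B. Its hypoxia values lay far apart, and the log2 difference of -0.50 ± 0.21 SE was not called (adjusted p = 0.101). On 209331_s_at the signal was 1556 and 1450.45 in normoxia and 812 and 996 in hypoxia. This is the MAX probe set that fell (log2 difference -0.73 ± 0.21 SE, adjusted p = 0.0298).
The call on 209331_s_at did not hold with quantile normalization (adjusted p = 0.085) or scaling to the 75th percentile (adjusted p = 0.066), nor without normoxia A (adjusted p = 0.320) or normoxia B (adjusted p = 0.232). On 210734_x_at the signal was 1202 and 1441 in normoxia and 632 and 1052 in hypoxia, with a log2 difference of -0.67 (adjusted p = 0.0916). On 208403_x_at it was 637 and 646 against 445 and 421, with a log2 difference of -0.54 (adjusted p = 0.159). With the letters as a replicate block, 209332_s_at (adjusted p = 0.0377) and 210734_x_at (adjusted p = 0.0222) were called lower too, which makes 3 of the 4 MAX sets. The names of 208403_x_at and 210734_x_at end in _x_at, the mark of sets whose probes may also bind other transcripts.

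MXD1, first described as MAD1, gave the largest difference of the network. On 228846_at the signal was 236 and 291 on normoxia A and B, and 2291 and 3186 on hypoxia A and B. Both hypoxia values stood far above the normoxia values. The means were 264 ± 38.8 and 2739 ± 632 (SD, n = 2 each), a 9.54-fold rise (log2 difference 3.25 ± 0.26 SE, adjusted p = 7.88e-05). On 226275_at the signal was 286 and 199.9 in normoxia and 2241 and 1774 in hypoxia (log2 difference 2.94 ± 0.27 SE, adjusted p = 1.47e-04). The dimmest probe set, 206877_at, had 10.3 and 98.6 in normoxia and 486 and 481 in hypoxia.
Its log2 difference was 2.98 ± 0.68 SE (adjusted p = 0.0103). Both of its normoxia values lay under the highest Bacillus control signal of their array, at 45.7 and 121, so its fold rests on values near background. That highest signal is a strict mark, and it stood higher in hypoxia, at 305 on A and 226 on B. The median Bacillus control was 16.9 and 17.2 on normoxia A and B, and 55.5 and 25.7 on hypoxia A and B. The log2 difference of 206877_at ranged from 2.05 without normoxia A to 3.90 without normoxia B. Without the intensity trend it was not called (adjusted p = 0.0599). The differences between the responses of these 3 probe sets had wide 95% intervals, from -1.57 to 0.94 for the 2 brighter sets and from -2.34 to 2.41 for 206877_at against 226275_at, so a difference of several fold between sets could not be detected.

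MXI1, which encodes the MAX-binding repressor also called MXD2, had 1 probe set, 202364_at. The signal was 5575 and 4927 on normoxia A and B, and 14739.8 and 13966 on hypoxia A and B. The arrays of each group lay close together and the groups far apart. The means were 5251 ± 458 and 14353 ± 547 (SD, n = 2 each), with a log2 difference of 1.45 ± 0.17 SE, a 95% interval from 1.07 to 1.83 and an adjusted p of 3.93e-04. It was 1.399 for A and 1.499 for B.

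How the arrays are scaled bears on every direction, because the 2% trimmed mean of the deposited signals is the same on each array, at 499.9. Scaling to the bacterial and phage RNAs added at hybridization moved the median of all tested probe sets by -1.35. Under it MXI1 was at -0.01 (adjusted p = 0.995), that is 1.29 above the median, so its rise is shown only relative to other genes. Whether its mRNA rose in absolute terms cannot be told. These controls were added only at hybridization, and they differed between normoxia A and B (2444 and 4595). With the same scaling MXD1 228846_at stayed higher at 1.85 (adjusted p = 0.0289), while MXD1 226275_at was not called at 1.54 (adjusted p = 0.0700). MXD1 228846_at lay 3.15 above the median. MYC was lower at -2.64, or -1.34 from the median. All 4 MAX probe sets were called lower there, at -1.93 to -2.15. MXD3 221250_s_at, MLX 217909_s_at and MGA 212945_s_at were too, at -1.67, -1.77 and -1.79. Scaling to the 75th percentile moved the median by 0.14. Of all called probe sets, 44.5% were higher as deposited, 53.8% at the 75th percentile and 1.07% with the hybridization controls.

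**Figure D2:**
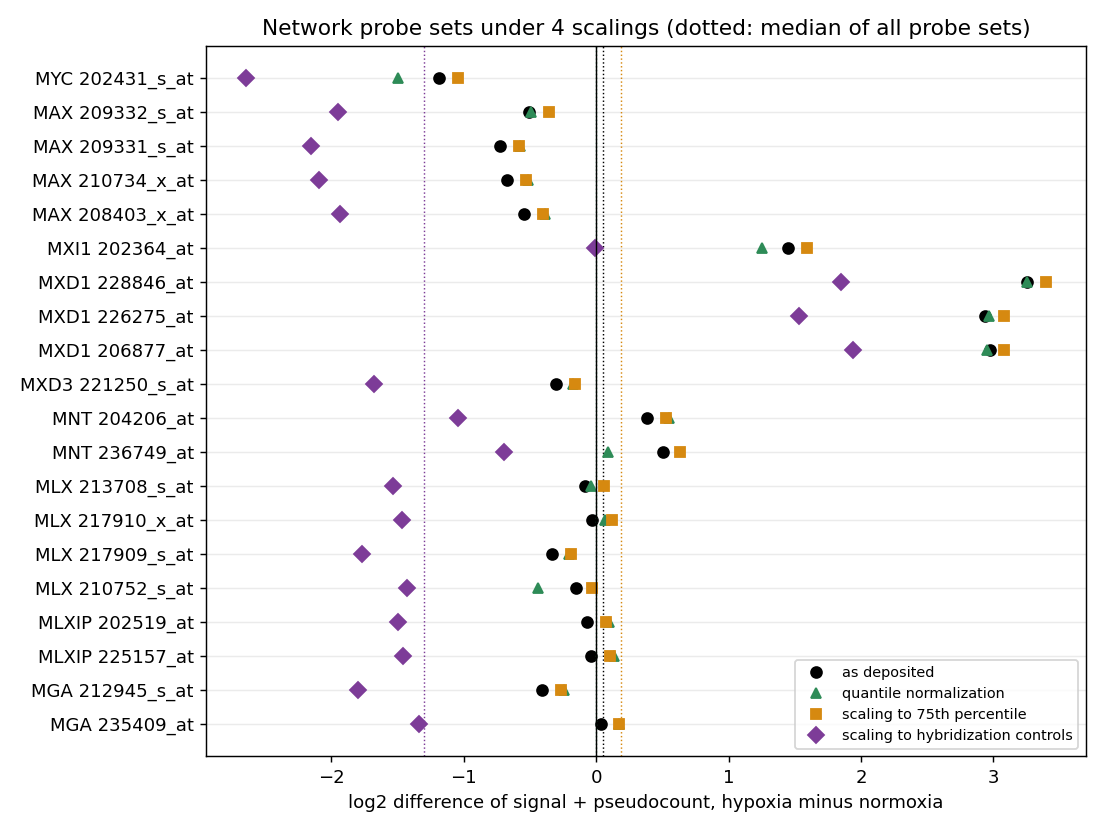
Log2 difference of each tested network probe set as deposited and under 3 other scalings, with a dotted line at the median of all tested probe sets for each. Relative to its own dotted line, MYC stays to the left and MXI1 and MXD1 to the right under all 4, while MXI1 lies at -0.01 under the hybridization controls.

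The other antagonists did not pass. MXD3, on 221250_s_at, had 441 and 459 in normoxia and 326 and 401 in hypoxia, lower on both hypoxia arrays, with a log2 difference of -0.30 (95% interval -1.01 to 0.41, adjusted p = 0.501). MNT, the MAX-binding repressor present in most cells, had 978 and 954 in normoxia on 204206_at, and 1848 on hypoxia A against 868 on hypoxia B. The hypoxia arrays thus fell on either side of normoxia. The log2 difference was 0.38 (95% interval -0.34 to 1.11). With hypoxia A left out it was -0.15. With hypoxia B left out it was 0.92, which rests on hypoxia A alone. The second MNT probe set, 236749_at, was dim, with 62.6 and 167 in normoxia and 166 and 152 in hypoxia (log2 difference 0.51, 95% interval -0.97 to 1.99).

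**Figure D3:**
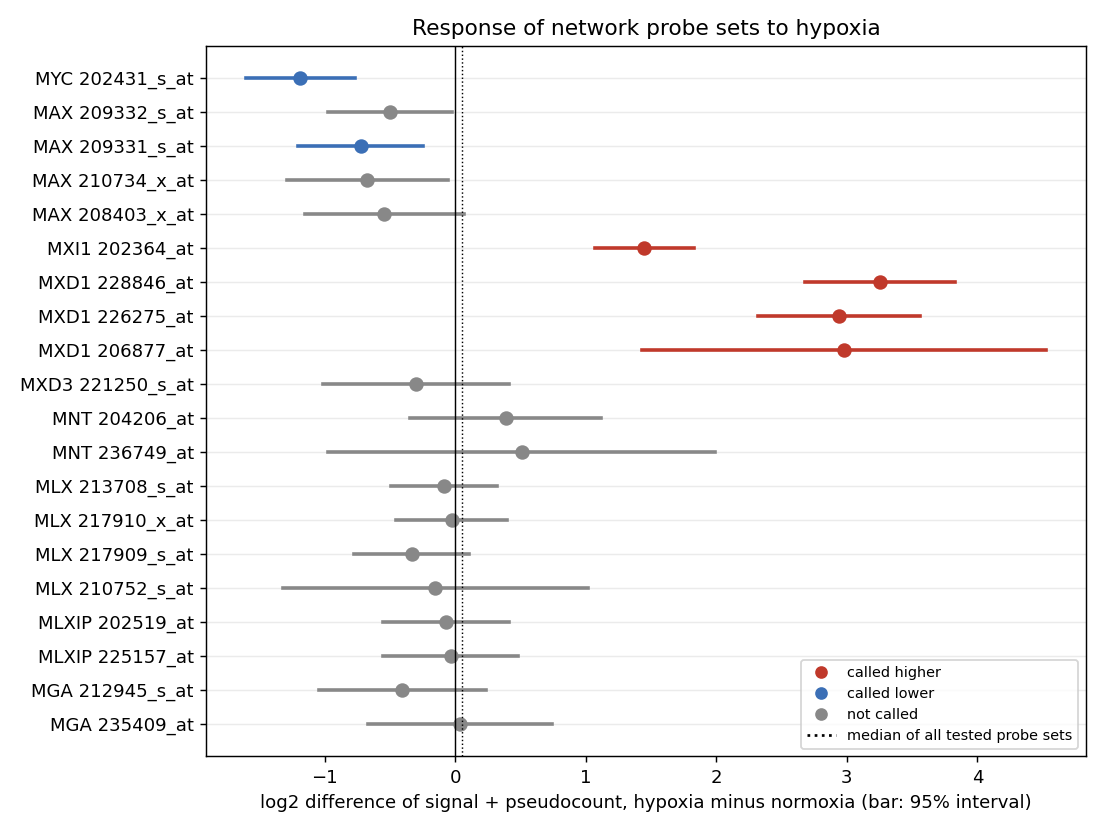
Log2 difference between hypoxia and normoxia for each tested network probe set, with its 95% interval as a bar, red where called higher, blue where called lower and grey where not called; the dotted line is the median of all tested probe sets, 0.05. The 4 red intervals lie above 1, and those of MLX, MLXIP and MGA span 0.

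As deposited, the MLX branch was close to level on its brighter probe sets. MLX 213708_s_at had 2443 and 2784 in normoxia and 2604 and 2316 in hypoxia, with overlapping groups and a log2 difference of -0.09 (95% interval -0.49 to 0.32). MLX 217910_x_at had 1733 and 2012 in normoxia and 1916 and 1751 in hypoxia (-0.03, 95% interval -0.45 to 0.40). MLX 217909_s_at had 1590.03 and 1575 in normoxia and 1324 and 1181 in hypoxia. It was lower on both hypoxia arrays, at -0.33 (95% interval -0.77 to 0.11, adjusted p = 0.222). The dim MLX 210752_s_at had 161 and 193 against 168 and 145.

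MLXIP, which encodes MondoA, had 956 and 1065 in normoxia and 969.9 and 949.7 in hypoxia on 202519_at. On 225157_at it had 859 and 1082 in normoxia and 896 and 985 in hypoxia. The groups overlapped on both, and the log2 differences were -0.07 (95% interval -0.56 to 0.41) and -0.04 (-0.55 to 0.48). As deposited, the intervals of these MLXIP sets and of MLX 213708_s_at leave out a 2-fold change either way. That does not hold under every scaling. With the hybridization controls these sets were at -1.49, -1.46 and -1.53, none of them called, where the median of all tested probe sets was -1.30. Their signs turned under some scalings and when single arrays were left out, as did that of MLX 217910_x_at. MGA 212945_s_at had 568 and 623 in normoxia and 401 and 491 in hypoxia, without overlap (log2 difference -0.41, 95% interval -1.04 to 0.23). MGA 235409_at had 375 and 427 in normoxia and 384 and 441 in hypoxia (0.04, 95% interval -0.67 to 0.74).

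The 7 probe sets under the filter were dim, and without the filter none of them was called (adjusted p = 0.147 to 0.991), 1 of them having an unadjusted p of 0.030. That set, MLXIP 1554886_a_at, had 19.2 and 17.1 in normoxia and 118 and 233 in hypoxia. MLXIP 211789_s_at had 30.4 and 8.73 against 97.4 and 90.6. Both were higher on both hypoxia arrays. On hypoxia A, where the highest Bacillus control was 305, both lay under it, and on hypoxia B, where it was 226, 1554886_a_at lay just above. MGA 1564640_at was also higher on both hypoxia arrays, at 1.51 and 47.8 against 125 and 94.7. The remaining 4 (MAX 214108_at, MLX 1570347_at and 231401_s_at, MGA 230848_s_at) overlapped between groups.

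Probe sets of 1 gene were compared through their ratio within each array. In limma, 0 of 18 pairs within a network gene were called, and 0 had an unadjusted p under 0.05. The largest difference was between the MGA sets, at -0.44 (adjusted p = 0.455). The same fit called 0 of 17967 pairs on the whole array, of which 3130 had an unadjusted p under 0.05. A trend on the dimmer probe set, added after seeing the data, gave 877 calls on the array and 0 of 18 within the network.

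Genes around the network were read from lists, each gene by its brightest probe set. Among 12636 tested genes, 14.5% were called higher and 21.7% lower, with a median log2 difference of -0.03. Of 25 tested genes that MYC is known to activate, 14 fell and 4 rose, with a median of -1.06. SRM, spermidine synthase, had 2636 and 2332 in normoxia and 436 and 311 in hypoxia, and fell by 2.67 on the log2 scale (SE 0.24, adjusted p = 1.33e-04). ODC1, ornithine decarboxylase, went from 15392 and 15901 in normoxia to 5117 and 5305 in hypoxia (-1.58).
The cell-cycle kinase gene CDK4 fell from 8527 ± 95.3 to 1403 ± 659 (-2.66 ± 0.28 SE), and SHMT2, mitochondrial serine hydroxymethyltransferase, fell from 4573 ± 437 to 1210.4 ± 105 (-1.90 ± 0.18 SE). CDC25A, a phosphatase that drives S-phase entry, had a log2 difference of -2.02 ± 0.65 SE (adjusted p = 0.0435). Both its hypoxia values, 107 and 30.2, lay under the Bacillus control maximum of their array, so the size is not known. That call was lost in 6 alternatives, among them a pseudocount of 1 (adjusted p = 0.0570), no filter (adjusted p = 0.0849) and the 75th percentile scaling (adjusted p = 0.0550). NME1, a nucleoside diphosphate kinase gene, had -1.73.

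The 4 that rose were LDHA (lactate dehydrogenase, 1.32 ± 0.21 SE, adjusted p = 0.00161), which is also a target of hypoxia-inducible factors, PTMA (prothymosin alpha, 1.07), TFRC (the transferrin receptor, 1.01) and NPM1 (nucleophosmin, 0.72). These 4, with ODC1 and NME1, were chosen after their values were seen. All 4 lay below 0 with the hybridization controls, and quantile normalization gave 0.38 for LDHA, 0.31 for PTMA, 0.28 for TFRC and -0.15 for NPM1. Without the trend 1 of this list was called higher. The second brightest NPM1 probe set was at -0.01 and another was called lower at -0.54, and its rise was not called without hypoxia A (adjusted p = 0.101) or B (adjusted p = 0.0991). The number of this list called lower stayed between 10 and 16 over the alternatives.

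Of 9 tested genes that MYC is known to repress, 4 rose and 0 fell, with a median of 0.67. The number called higher was 1 to 5 over the alternatives. It was 1 without the trend, 2 at 0.01 or with a 2-fold minimum, and 1 with the hybridization controls, where 1 was called lower. NDRG1, which is also a hypoxia gene, rose from 3201 ± 563 to 52121 ± 5838 (log2 difference 4.02 ± 0.19 SE). The inhibitor of CDK4 and CDK6 encoded by CDKN2B rose from 296 ± 18.8 to 869 ± 352 (1.42 ± 0.34 SE, adjusted p = 0.0121), and CDKN1B, the gene of p27, rose from 4056 ± 581 to 7737 ± 543 (0.93 ± 0.18 SE, adjusted p = 0.00425). The stress gene GADD45A was at 0.59 (adjusted p = 0.0337), which did not hold without normoxia A (adjusted p = 0.124) or without hypoxia B (adjusted p = 0.0708). CDKN2B was not called without normoxia B (1.36, adjusted p = 0.0657), and was at 0.03 with the hybridization controls and not called. With the hybridization controls CDKN1B and GADD45A were below 0, at -0.52 and -0.86.

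**Figure D4:**
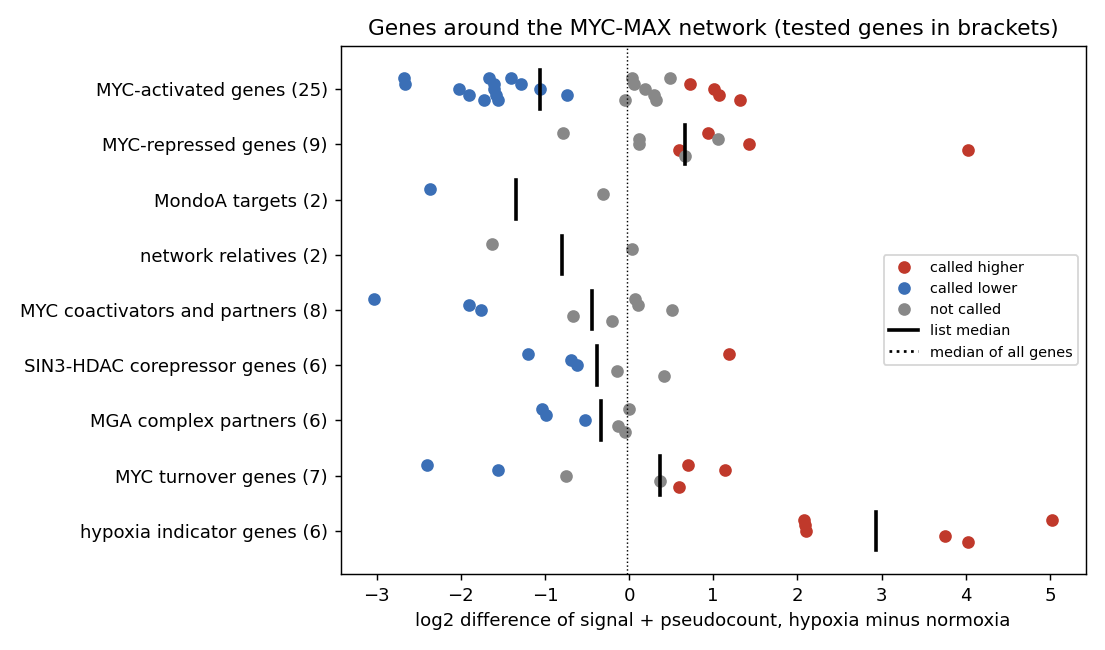
Log2 difference of each tested gene in 9 lists around the network (1 point a gene, its brightest probe set), coloured by call, with a bar at the list median and a dotted line at the median of all genes, -0.03. The median is -1.06 for MYC-activated genes and 0.67 for MYC-repressed genes.

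Cofactors of MYC were lower in part. Of 8 tested coactivator and partner genes, 3 fell and 0 rose (median -0.44). RUVBL1 and RUVBL2, paired ATPases of the TIP60 complex, both fell. RUVBL1 had 3281 and 2871 in normoxia and 259.6 and 485 in hypoxia, the first of these under the Bacillus control maximum of 305 (log2 difference -3.03 ± 0.29 SE). RUVBL2 had means of 6302 ± 587 and 1839 ± 211 (-1.77 ± 0.18 SE). WDR5, a chromatin adaptor that binds MYC, fell from 2468 ± 425 to 650.1 ± 168 (-1.90 ± 0.24 SE). TRRAP, the scaffold that MYC recruits, was at -0.20 (adjusted p = 0.539). It and the other uncalled genes named from these lists (SIN3A, SIN3B, FBXW7) were chosen after their values were seen.

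The corepressor genes used by MXD proteins and MNT went both ways, with 3 of 6 lower and 1 higher (median -0.38). The deacetylase genes HDAC1 (-0.62, adjusted p = 0.0247) and HDAC2 (-0.69, adjusted p = 0.0131) and the SIN3 subunit gene SUDS3 (-1.20) fell. The SIN3 subunit gene SAP30 rose from 1792 ± 66.1 to 4125 ± 528 (1.19 ± 0.18 SE) on a probe set of the cross-hybridizing type. Its 3 dimmer probe sets, at -0.18, 0.61 and 0.34, were not called. The brightest was at -0.26 with the hybridization controls. The scaffolds SIN3A (-0.15) and SIN3B (0.41) did not pass. Without the trend, 0 of this list were called in either direction. Without normoxia A none of the 3 was called lower, and without normoxia B 1 was.
Of 6 tested partners of MGA, 3 fell (median -0.33). These were TFDP1, the E2F partner (-1.03), PCGF6, a Polycomb ring finger gene (-0.99), and CBX3, a heterochromatin protein gene (-0.53). Without the trend 0 were called lower (adjusted p = 0.0588 for PCGF6, 0.0750 for TFDP1 and 0.173 for CBX3). CBX3 lost its call when any 1 array was left out (adjusted p = 0.0504 to 0.130), and PCGF6 did so without normoxia A (-0.96, adjusted p = 0.151) or B (-1.01, adjusted p = 0.124), at nearly the same difference.

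Genes that act on MYC protein stability also split, with 3 of 7 higher and 2 lower (median 0.36). SKP2, a ubiquitin ligase subunit, fell by 2.40 on the log2 scale (1138 ± 122 in normoxia, 229 ± 176 in hypoxia). Its hypoxia B value lay under the Bacillus control maximum of that array. USP36, a nucleolar deubiquitinase, fell from 1465 ± 70.2 to 480.5 ± 36.0 (-1.56 ± 0.23 SE). The dimmer USP36 probe sets tested were not called, at -0.10, -0.50 and -0.82 (adjusted p = 0.814, 0.289 and 0.0927). The deubiquitinase gene USP28 rose from 766 ± 122 to 1255 ± 128 (0.70 ± 0.23 SE, adjusted p = 0.0456), with 2 further probe sets called higher, but not without normoxia A (adjusted p = 0.439) or B (adjusted p = 0.185). The ligase gene HUWE1 was at 1.14 on a probe set of the cross-hybridizing type and at -0.13 on another, and its call was lost with quantile normalization (0.14, adjusted p = 0.249). The kinase gene GSK3B was called higher at 0.59, with another set higher at 1.91 and one more lower at -3.02 with both hypoxia values under the Bacillus controls, so its probe sets do not give 1 direction. The rise at 0.59 was not called without normoxia A (0.61, adjusted p = 0.163) or B (0.57, adjusted p = 0.195), at nearly the same difference. These 3 rises were below 0 with the hybridization controls. GSK3B was named outside the rule for list genes, after its values were seen. FBXW7, the ligase subunit that targets phosphorylated MYC, was at 0.36 (adjusted p = 0.286). Without normoxia A, and without normoxia B, 1 gene of the list was called higher. Without the trend 0 were called higher and 1 lower.

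Of the genes known to respond to MLX with MondoA, the alpha-arrestin gene ARRDC4 had 2503 and 1807 in normoxia and 510.2 and 302 in hypoxia. It fell by 2.37 on the log2 scale (adjusted p = 5.35e-04), and KLF10 was at -0.31 (adjusted p = 0.174). TXNIP, the best known of them, was dim, with 36.5 and 31.8 in normoxia and 82.1 and 194 in hypoxia, all under the Bacillus control maximum of their array, and was not tested. Of the MYC relatives, MYCN was likewise untested, with 39.7 and 6.73 against 170.3 and 119. MYCL had 202 and 396 against 18.5 and 211 (log2 difference -1.63, adjusted p = 0.163), and was called lower with the letters as a replicate block (adjusted p = 0.0490). Both its hypoxia values lay under the Bacillus control maximum of their array, so the size of this difference is not known. MLXIPL, the gene of ChREBP, had 310 and 293 in normoxia and 474 and 199 in hypoxia (0.03).

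As a check of the labels, 6 of 6 tested hypoxia indicator genes rose, from SLC2A1 (2.08), ADM (2.09), VEGFA (2.10) and EGLN3 (3.76) to NDRG1 (4.02) and ANKRD37 (5.02). With the hybridization controls 3 of the 6 were called higher. SLC2A1, ADM and VEGFA were then at 0.63, 0.64 and 0.64 and not called, or 1.93, 1.93 and 1.94 above the median of all tested probe sets. CA9, also on that list, was not analysed here. Of 6 epithelial markers, 5 lay above the highest Bacillus control on every array and VIL1 lay under it on both hypoxia arrays. Their summed signal was 73837 and 87460 in normoxia and 115271 and 107666 in hypoxia. Of 6 measured markers of blood, vessel, stroma and liver cells, PTPRC and ALB lay under the highest control on all 4 arrays and CD3E on 3, while COL1A1 rose from 545 and 595 to 1752 and 2162. Of the 6 markers, 4 and 2 lay above the highest control on normoxia A and B, and 2 on each hypoxia array. The 3 that were tested had a median log2 difference of 1.07, with 1 called higher. The summed signal of the 6 was 870.4 and 1298 in normoxia and 2516 and 2940.5 in hypoxia. The ratio of the 3′ to the 5′ actin control was 1.26 and 1.28 in normoxia and 1.66 and 1.77 in hypoxia, and that of GAPDH was 0.918 and 0.996 against 0.912 and 0.955. The hybridization controls had geometric means of 2444 and 4595 in normoxia and 9869 and 8594 in hypoxia. The part of these in the differences above was not tested.

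By the distance between centred log2 values over the 4 arrays, the genes nearest to MYC among 12635 were HSPA4L (0.0674), GAR1 (0.0765) and KIF5C (0.0796), which encode a heat shock protein, a nucleolar small-RNP protein and a kinesin. GAR1 had 3920 and 4673 in normoxia and 1669 and 2065 in hypoxia, the same order of the 4 arrays as MYC. The nearest to MXI1 were PRKCE (0.0435), a protein kinase C gene, ASPH (0.0629), an aspartyl hydroxylase gene, and LMAN1 (0.0693), a cargo receptor gene. With 4 arrays in 2 groups such likeness mostly restates the group difference.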

How the data were processed

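Total RNA (6 µg) of HCT116 cells was measured on 4 Affymetrix arrays, 2 per group. The deposited values are intensity signals from the authors' MAS5 run, as the submitters' processing notes name it, with no version. Their 2% trimmed mean was 499.9 on each array. Depth has no meaning for arrays, and their number limits the precision. No detection calls were used.

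From these, log2(signal + 23.7) was computed, with the added constant set at the 25th percentile of the values. The 62 control probe sets were left out, and probe sets with a mean of at least 97.4 were fitted with limma 3.58.1 in R 4.3.3 (lmFit, eBayes with an intensity trend, Benjamini-Hochberg over 27304). The fit was tested on simulated data. Genes come from the platform annotation, which gives 41091 probe sets 1 gene, 1801 several and 11721 none. Of 19775 genes, 19735 matched RefSeq by gene identifier. A list gene is read from its brightest probe set by mean over the arrays. Those of HUWE1, PTMA, SAP30, SKP2 and USP28 have names that end in _x_at, the cross-hybridizing type.

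The members and lists were chosen with earlier results of these data known. List genes are named by size of difference among those called, up to a few a list, and exceptions are stated. Alternatives changed the pseudocount, filter, scaling, limma options, threshold, replicate block and arrays. The titles' exp A and exp B are not said to mark pairs, so the letters were used as a block only in an alternative. The correlation of A minus B between the groups was 0.0642, which cannot show whether the arrays were paired. At most 1 value was identical between any 2 arrays.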

Additional observations from a re-analysis of the deposited data

How the results depend on the processing

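Of 8406 probe sets called (3738 higher, 4668 lower), 3824 were called without the trend (1704 and 2120), 4803 with 1 probe set per gene (1927 and 2876), 4725 at 0.01 (2049 and 2676), 110 higher and 10150 lower with the hybridization controls, and 4322 to 11785 with 1 array left out (2267 to 5000 and 2043 to 6785). Network probe sets called were 10 with the hybridization controls (2 higher, 8 lower), 3 without the trend (0 lower) and 3 with 1 probe set per gene (2 and 1). Those called lower were 1 with quantile normalization, the 75th percentile, 0.01 or a 2-fold minimum, and 1 to 4 with 1 array left out. With the letters as a replicate block, 4 were called lower, with MAX 209332_s_at at -0.50 (adjusted p = 0.0377) and 210734_x_at at -0.67 (adjusted p = 0.0222). The titles give exp A and exp B in both groups without saying that they mark pairs, so the main fit left the letters out. Deviations of the same letter correlated at 0.0642, which does not settle whether the arrays were paired. Pairs called were 451 with the 75th percentile filter and 877 with the added trend.
Without the trend MYC stayed at -1.19 (adjusted p = 0.0544) and MAX 209331_s_at at -0.73 (adjusted p = 0.114). MAX 209331_s_at was at -0.57 with quantile normalization, -0.58 at the 75th percentile and -0.87 to -0.58 with 1 array left out. MAX 209332_s_at was at -1.95 with the hybridization controls and -0.76 to -0.24 with 1 array left out.
Signs turned as follows, and the cause was not tested. With the hybridization controls, values were -0.0059 for MXI1, -1.04 and -0.70 for MNT 204206_at and 236749_at, -1.34 for MGA 235409_at, -0.74 for NPM1, -0.14 for LDHA, -0.39 for PTMA, -0.45 for TFRC, -0.52 for CDKN1B, -0.86 for GADD45A, -1.32 for MLXIPL, -0.26 for SAP30, -0.32 for HUWE1, -0.72 for USP28, -0.86 for GSK3B and -0.0625 for ASPH. With quantile normalization they were 0.0711 for MLX 217910_x_at, 0.0987 and 0.134 for MLXIP 202519_at and 225157_at, and -0.15 for NPM1. At the 75th percentile they were 0.0594 and 0.117 for MLX 213708_s_at and 217910_x_at, and 0.0727 and 0.107 for MLXIP 202519_at and 225157_at. With 1 array left out, values crossed 0 for MNT 204206_at (-0.15 to 0.92) and 236749_at (-0.0648 to 1.08), MLX 213708_s_at (-0.179 to 0.0073) and 217910_x_at (-0.134 to 0.0788), MLXIP 202519_at (-0.147 to 0.0060) and 225157_at (-0.199 to 0.126), MGA 235409_at (-0.0577 to 0.132) and MLXIPL (-0.55 to 0.61).
The call and direction of MXD1 228846_at held in all 15 alternatives run, at 1.85 to 3.49. Of the other MXD1 sets, 226275_at lost its call with the hybridization controls (1.54) and 206877_at without the trend (adjusted p = 0.0599). Signals under the Bacillus controls limit the dim probe sets.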
